A study of Mus musculus with 8 samples.

Results

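The Hox cluster genes are the 39 genes of the mouse Hoxa, Hoxb, Hoxc and Hoxd clusters, chosen by symbol (cluster letter followed by a number, antisense transcripts left out) from the 24411 genes of the count tables. The number in each symbol is the paralog group, which counts from 1 at the 3′ end of a cluster to 13 at its 5′ end. There are 11 Hoxa genes on chromosome 6, 10 Hoxb genes on chromosome 11, 9 Hoxc genes on chromosome 15 and 9 Hoxd genes on chromosome 2. In the 8 libraries 24 of the 39 genes were detected and 15 were silent, silent meaning at most 3 counts in every library.

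Polyadenylated RNA of A223, a mouse squamous cell carcinoma line, was sequenced in 4 groups of 2 replicate libraries. The groups were PRDX6 knockdown (KD) cells given 100 nM largazole for 18 h, KD cells given DMSO and taken at 0 h, parental cells given 100 nM largazole for 18 h, and parental cells given DMSO and taken at 0 h. PRDX6 is a peroxiredoxin, and largazole inhibits class I histone deacetylases. Largazole and time changed together, so their parts in a difference cannot be told apart, and the construct behind the knockdown, or whether the KD cells are a clone, is not stated in the labels. The labels do not say whether the replicates were separate cultures, and p-values reflect only how these libraries vary, which may be technical variation.

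Total counts per library ranged from 13020492 to 15613216. Prdx6, the targeted gene, lay between 64.8 and 86.6 CPM (read counts scaled to library size with TMM) in the 4 KD libraries, against 233 to 297 CPM in the 4 parental libraries. Of the squamous markers checked, Krt5, Krt6a, Krt17, Trp63 and Cdh1 stayed under 1 CPM in every library, Krt14 reached 3.20 CPM and Epcam 3.97 CPM, while Krt8 and Krt18, keratins of simple epithelium, were abundant (1006 to 2267 CPM and 94.8 to 183 CPM). Of 8 fibroblast and mesenchyme markers 7 reached at least 1 CPM in every library, with summed levels of 8995 to 10866 CPM. The squamous identity named in the labels was therefore not borne out by its defining markers. Rn45s, the ribosomal RNA precursor, differed widely between replicates in 3 groups, with 23901 and 742 CPM in the KD largazole libraries, 9961 and 2549 CPM in the KD DMSO libraries and 7735 and 949 CPM in the parental largazole libraries, and lay at 1353 and 1212 CPM in parental DMSO. Its removal before scaling changed no call of a Hox gene.

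Hox proteins are homeodomain transcription factors that give cells along the head-to-tail axis their regional identity. Within a cluster the genes are switched on in their order along the chromosome: 3′ genes act early and towards the head, 5′ genes late and towards the tail, limb tips and genital tract. Adult cells, fibroblasts in particular, keep part of the Hox pattern of their site of origin, and silent stretches of a cluster are covered by Polycomb-deposited histone marks while active stretches carry trithorax-deposited ones. The Hox proteins bind DNA together with TALE homeodomain partners of the PBX, MEIS and PKNOX families.

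Expression followed position. In paralog groups 1 to 8, 21 of 23 genes were detected, and Hoxb1 and Hoxd1 were silent. In paralog groups 9 to 13, 3 of 16 genes were detected, Hoxb9, Hoxa10 and Hoxc10, and only Hoxb9 had more than 7 counts in any library. All 15 genes of groups 4 to 8 were detected. By cluster, 8 of 11 Hoxa genes, 8 of 10 Hoxb genes, 5 of 9 Hoxc genes and 3 of 9 Hoxd genes were detected. Hoxb genes held 44.6% of the 28682 Hox counts, Hoxa genes 32.6%, Hoxc genes 17.6% and Hoxd genes 5.09%.

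**Figure D1:**
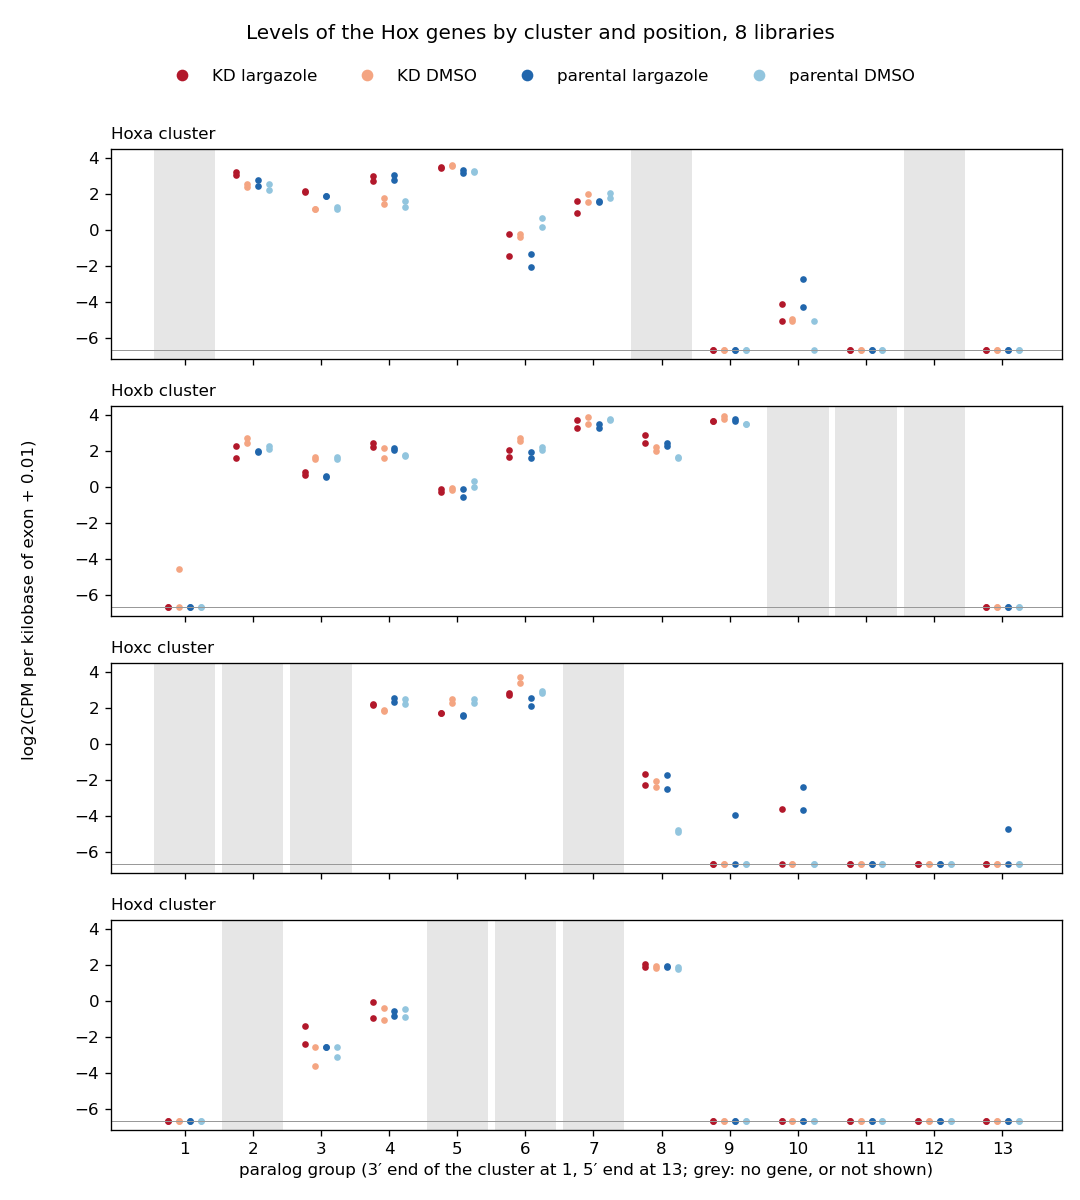
Level of the Hox genes as log2 of CPM per kilobase of exon plus 0.01 (vertical axis) by paralog group (horizontal axis, 1 at the 3′ end and 13 at the 5′ end), 1 panel per cluster and 1 point per library, coloured by group. Grey columns mark paralog groups with no gene in that cluster or with a gene that is not shown, and points on the thin line at the bottom of a panel are libraries with 0 counts; beyond Hoxa7, Hoxb9, Hoxc8 and Hoxd8 nearly all points lie on or near that line.

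The 12 genes with 0 counts in all 8 libraries were Hoxa9, Hoxa11, Hoxa13, Hoxb13, Hoxc11, Hoxc12, Hoxd1, Hoxd9, Hoxd10, Hoxd11, Hoxd12 and Hoxd13. Among them are Hoxa13 and Hoxd13, which pattern the digits and the genital tract, Hoxa11 and Hoxd11, which pattern the forearm and lower leg, and Hoxa9, a regulator of blood progenitors. The other 3 silent genes were Hoxb1, which specifies the fourth hindbrain segment and had 1 count in KD DMSO replicate 2, Hoxc9, with 2 counts in parental largazole replicate 2, and Hoxc13, a regulator of hair keratins, with 1 count in parental largazole replicate 1. A count of 0 allows a level of up to 0.198 to 0.234 CPM in a single library (3 counts) and of up to 0.0262 CPM over all 8 libraries, counting error only. The silent genes were therefore not detectable at this depth, which does not show that they were absent.

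The step down the clusters was short where detected and silent neighbours adjoin. Hoxa7, a gene of the thoracic region, had 1048 counts in all, and Hoxa9, whose RefSeq start site lies 8.797 kb further 5′, had 0. Hoxd8, a gene of the trunk, had 1160 counts, and Hoxd9, with a start site 6.852 kb further 5′, had 0. In the Hoxc cluster the step came in stages: Hoxc6 had 2146 counts, Hoxc8, whose GENCODE model starts 7.65 kb further 5′, had 58, and Hoxc9, 14.168 kb beyond Hoxc8, had 2. In the Hoxb cluster Hoxb9 had 3814 counts, and Hoxb13, 77.141 kb away, had 0. At the 3′ ends, Hoxb2 had 1827 counts and Hoxb1, 15.227 kb away, had 1, while Hoxd3 had 81 and Hoxd1, 51.053 kb away, had 0.

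The promoters at the sharpest steps are shown because each pair sets a detected gene beside its silent neighbour. Each line holds the 250 bases before a RefSeq start site on build GRCm38.p6 (the assembly of mm10), read 5′ to 3′ on the strand of the gene, with every CG pair in capitals. The windows are chr6:52218574-52218823 on the minus strand for Hoxa7, chr6:52227371-52227620 on the minus strand for Hoxa9, chr2:74704365-74704614 on the plus strand for Hoxd8 and chr2:74697513-74697762 on the plus strand for Hoxd9.
Hoxa7 (detected): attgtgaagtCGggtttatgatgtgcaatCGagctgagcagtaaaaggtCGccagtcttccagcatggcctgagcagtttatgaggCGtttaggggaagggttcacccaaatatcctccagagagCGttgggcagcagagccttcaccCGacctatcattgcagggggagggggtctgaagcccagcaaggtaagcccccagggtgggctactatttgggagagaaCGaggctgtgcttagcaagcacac
Hoxa9 (silent): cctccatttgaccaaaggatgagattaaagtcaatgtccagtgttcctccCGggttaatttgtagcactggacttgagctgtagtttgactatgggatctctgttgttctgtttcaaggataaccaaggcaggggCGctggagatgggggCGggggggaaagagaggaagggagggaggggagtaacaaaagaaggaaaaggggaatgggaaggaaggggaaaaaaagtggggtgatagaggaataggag
Hoxd8 (detected): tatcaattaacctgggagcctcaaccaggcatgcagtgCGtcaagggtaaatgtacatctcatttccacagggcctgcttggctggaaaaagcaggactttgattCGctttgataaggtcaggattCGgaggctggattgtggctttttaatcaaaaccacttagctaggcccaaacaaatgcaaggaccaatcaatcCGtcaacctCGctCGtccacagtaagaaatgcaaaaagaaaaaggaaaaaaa
Hoxd9 (silent): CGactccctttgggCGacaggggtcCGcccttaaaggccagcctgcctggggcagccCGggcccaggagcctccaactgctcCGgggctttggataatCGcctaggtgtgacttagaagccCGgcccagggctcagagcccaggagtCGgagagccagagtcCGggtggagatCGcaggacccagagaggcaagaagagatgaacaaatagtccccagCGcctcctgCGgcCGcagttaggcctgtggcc
These windows hold 7 CG pairs in Hoxa7, 3 in Hoxa9, 6 in Hoxd8 and 13 in Hoxd9, so the detected gene had more of them in 1 pair and fewer in the other. The RefSeq promoter table held entries for 22 of the 39 genes (24 promoters). Their median was 12.5 CG pairs (2 to 35), against 6 over all 32841 promoters of the table. The 13 promoters of detected genes had a median of 12 (3 to 28) and the 11 of silent genes a median of 13 (2 to 35), the first range lying within the second. Both strands were searched for 4 motifs, none of which contains another. The CCAAT box was in 58.3% of the Hox promoters and 33.9% of all promoters. The letters GGGCGG, known as a GC box, were in 41.7% and 32.7%. The letters TATAAA were in 16.7% and 12.4%. A motif type bound by PBX-HOX pairs, TGATTNAT, was in 8.33% and 2.83%. These shares describe the windows and carry no test.

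Levels can be compared between genes only per length, here as the mean CPM per kilobase of annotated exon over the 8 libraries. Hoxb9, a gene of the rib cage and mammary gland, stood highest at 12.9 (11.1 to 15.4 over libraries), followed by Hoxb7, a trunk gene, at 12.0 (9.78 to 14.5), and Hoxa5, which patterns the neck and lung, at 10.4 (9.05 to 12.1). Hoxc6, at 7.78, had the widest range of the 4 (4.21 to 13.2), and the ranges of all 4, each taken over the 4 groups, overlap. Within libraries Hoxb9 lay above Hoxa5 and Hoxc6 in all 8. Hoxb7 lay above Hoxb9 in some libraries and below it in others, so the order of these 2 is not settled. The order of the 4 also depends on the length used: with the longest transcript Hoxb7 came first at 14.4, then Hoxb9 at 12.9, Hoxc6 at 11.8 and Hoxa5 at 10.4. By the union of exons there followed Hoxa2 at 6.42 and Hoxa4 at 5.15, and the next 10 genes, from Hoxb8 to Hoxb3, lay between 4.71 and 2.31. A clear gap separated these from Hoxb5 at 0.922, Hoxa6 at 0.757, Hoxd4 at 0.646, Hoxc8 at 0.177 and Hoxd3 at 0.170. Hoxc10 and Hoxa10 were lowest among the detected genes, at 0.0397 and 0.0393. Hoxa3 ranked 16 with the union of its exons and 5 with its longest transcript (7.32 CPM per kilobase), the only detected gene whose rank moved by more than 5.

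Some reads cannot be assigned with confidence, since no source used here says if counting heeded the strand. In GENCODE M21, 62.3% of the exon bases of Hoxd3 and 52.3% of those of Hoxd4 are shared with other genes of the same strand. These are each other and Gm28230. Antisense exons cover 52.9% of Hoxb3, 27.3% of Hoxb2, 25.4% of Hoxa3, 20.4% of Hoxa7 and 15.998% of Hoxa4. Hoxc5 and Hoxc10 share a stretch that makes up 5.37% of Hoxc5 and 8.70% of Hoxc10. The non-coding transcripts measured were low: Hoxaas2 had 12 to 28 counts per library, Hotairm1 0 to 5, and Hotair, Hottip, Hoxa11os and Hoxb5os had 0 in all 8. Mira, which RefSeq places inside the span of Hoxa7, had 49 to 105 counts and passed no test, nor did Hoxaas2.

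With largazole, Hox genes changed in both directions in both genotypes. The 22 genes with enough counts to be tested comprise 7 Hoxa, 8 Hoxb, 4 Hoxc and 3 Hoxd genes. With largazole in KD cells 10 of 22 passed (adjusted p under 0.05, edgeR, quasi-likelihood F test, Benjamini-Hochberg adjustment over 12517 genes), 5 higher and 5 lower, which is 45.5% beside 48.2% of all genes tested (25% higher and 23.2% lower). In parental cells 9 of 22 passed, 5 higher and 4 lower, 40.9% beside 49.6% of all genes (26.9% higher and 22.7% lower). The share of Hox genes called was thus no higher than that of genes in general. In both genotypes 4 genes rose, Hoxa3, Hoxa4 and Hoxb8 among them, and 3 fell, Hoxb3, Hoxc5 and Hoxc6. Hoxa2 rose and Hoxb2 and Hoxb6 fell with the call in KD cells only, and Hoxc8 rose and Hoxa6 fell with the call in parental cells only. The median size of the log2 fold change was 0.52 for the Hox genes and 0.38 for all genes in KD cells, and 0.37 and 0.38 in parental cells. In bulk RNA, fewer expressing cells and less RNA per cell cannot be told apart.

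**Figure D2:**
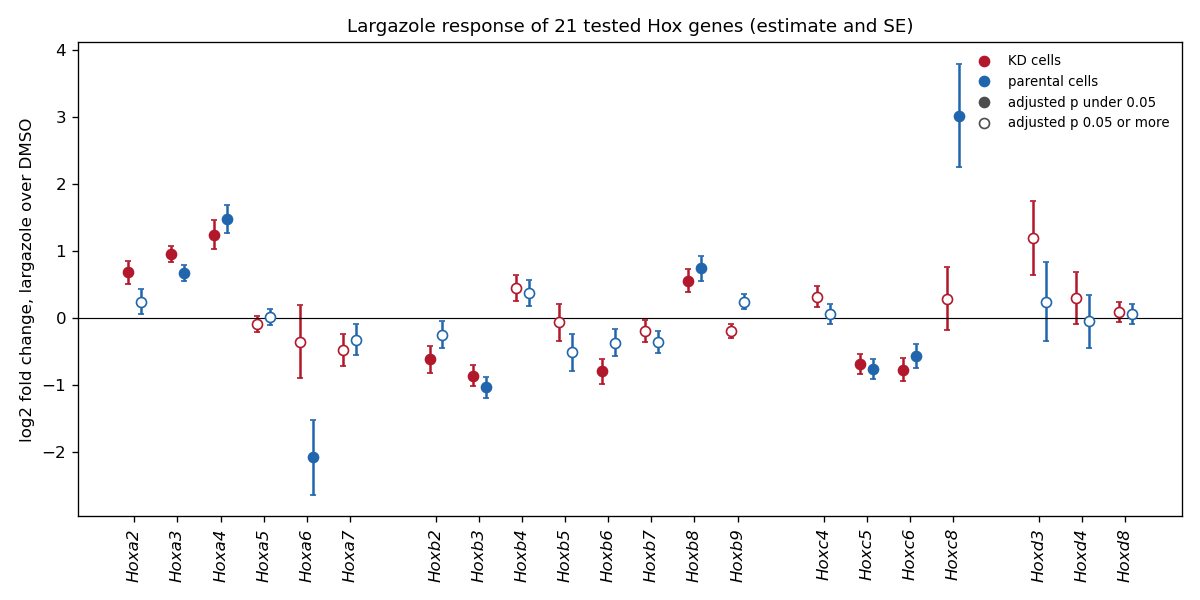
Log2 fold change of largazole over DMSO (vertical axis) for 21 of the 22 tested Hox genes in cluster and position order (horizontal axis), KD cells left of parental cells, with bars of 1 standard error. Filled points passed at an adjusted p under 0.05; Hoxa2 to Hoxa4 lie above 0 in both genotypes, Hoxb3, Hoxc5 and Hoxc6 below 0 in both, and the Hoxd genes have open points in both.

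In the 3′ stretch of the Hoxa cluster, Hoxa3, which the thymus and parathyroid need to form, had 26.9 and 25.7 CPM in the KD largazole libraries, against 13.6 and 13.5 CPM in the KD DMSO libraries. In parental cells its levels were 22.3 and 22.002 CPM with largazole, against 13.5 and 14.4 CPM with DMSO. Replicates lay close together and groups apart, with a rise of 0.96 ± 0.12 on the log2 scale in KD cells (SE, edgeR adjusted p = 0.000119) and 0.67 ± 0.12 in parental cells (adjusted p = 0.00113). Hoxa4, a gene of the neck vertebrae, had 12.7 and 10.4 CPM in the KD largazole libraries, against 4.28 and 5.45 CPM in the KD DMSO libraries. With largazole parental cells had 13.2 and 11.001 CPM, against 3.77 and 4.86 CPM with DMSO. All 4 largazole libraries lay above all 4 DMSO libraries, and the rise was 1.25 ± 0.21 in KD cells (adjusted p = 0.000937) and 1.48 ± 0.21 in parental cells (adjusted p = 0.000325).

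Hoxa2, which sets the identity of the second pharyngeal arch, had 16.7 and 14.6 CPM in the KD largazole libraries, against 9.22 and 10.3 CPM in the KD DMSO libraries. In parental cells it had 12.3 and 9.55 CPM with largazole, against 10.2 and 8.30 CPM with DMSO. The groups were apart in KD cells and overlapped in parental cells: the log2 fold change was 0.68 ± 0.18 in KD cells (edgeR adjusted p = 0.0103) and 0.24 ± 0.19 in parental cells (adjusted p = 0.3001). The call in KD cells was lost without KD DMSO replicate 1 (adjusted p = 0.0784). The difference between the responses was 0.44 ± 0.26 (adjusted p = 0.734).

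Further 5′ in the cluster the levels moved less or the other way. Hoxa5 lay between 20.5 and 22.6 CPM in the 4 KD libraries and between 17.0 and 18.4 CPM in the 4 parental libraries, with log2 fold changes of -0.09 ± 0.12 in KD cells and 0.01 ± 0.12 in parental cells. Hoxa7 lay between 5.45 and 11.8 CPM, with -0.47 ± 0.24 in KD cells (edgeR adjusted p = 0.130) and -0.32 ± 0.23 in parental cells (adjusted p = 0.267). It passed in KD cells without KD largazole replicate 2, at -0.86 (adjusted p = 0.00945). Hoxa6, a trunk gene, was read from few counts, with 0.312 and 0.741 CPM in the KD largazole libraries, against 0.658 and 0.737 CPM in the KD DMSO libraries, and 0.340 and 0.198 CPM in the parental largazole libraries, against 0.961 and 1.35 CPM in parental DMSO. The groups overlapped in KD cells and were apart in parental cells. Hoxa6 fell by 2.08 ± 0.56 in parental cells (adjusted p = 0.0113), a call lost with DESeq2 (adjusted p = 0.0513), without parental DMSO replicate 2 (0.0861) and without parental largazole replicate 2 (0.0845). Its log2 fold change in KD cells was -0.36 ± 0.54, and the difference between the responses was 1.73 ± 0.81 (adjusted p = 0.604).

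The sum over all 39 Hox genes was 258.9 ± 16.2 CPM in the KD largazole libraries and 262.8 ± 18.3 CPM in the KD DMSO libraries, and 245.4 ± 10.8 CPM in the parental largazole libraries and 233.992 ± 3.13 CPM in parental DMSO (SD, n = 2 libraries). The totals of the largazole and DMSO libraries overlapped in KD cells and did not in parental cells.

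The Hoxb cluster held the largest number of tested genes and the most mixed responses. Hoxb3, a hindbrain gene, had 6.62 and 7.62 CPM in the KD largazole libraries, against 13.5 and 12.5 CPM in the KD DMSO libraries. In parental cells it had 6.47 and 6.06 CPM with largazole, against 13.2 and 12.5 CPM with DMSO. All 4 largazole libraries lay below all 4 DMSO libraries, and Hoxb3 fell by 0.87 ± 0.16 in KD cells (edgeR adjusted p = 0.00133) and by 1.04 ± 0.16 in parental cells (adjusted p = 0.000456). Hoxb8, which holds myeloid progenitors in an immature state when overexpressed, had 19.4 and 14.2 CPM in the KD largazole libraries, against 12.1 and 10.5 CPM in the KD DMSO libraries. Parental cells had 14.1 and 12.8 CPM with largazole, against 7.91 and 8.16 CPM with DMSO. The largazole libraries were higher within each genotype, and Hoxb8 rose by 0.56 ± 0.18 in KD cells (adjusted p = 0.0243) and by 0.74 ± 0.19 in parental cells (adjusted p = 0.00795). The KD call was lost in a fit of only the libraries compared (adjusted p = 0.0703) and without KD DMSO replicate 1 (0.0534), KD DMSO replicate 2 (0.132) or KD largazole replicate 1, where the estimate was 0.31 (0.136). The parental call was lost without parental DMSO replicate 1 (0.0542) or parental largazole replicate 1 (0.0556).

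Hoxb6, a trunk gene, had 8.02 and 6.13 CPM in the KD largazole libraries, against 13.04 and 11.4 CPM in the KD DMSO libraries, and 7.42 and 5.93 CPM in the parental largazole libraries, against 9.17 and 8.09 CPM in parental DMSO. The largazole libraries were lower in both genotypes, but Hoxb6 passed only in KD cells, where it fell by 0.80 ± 0.19 (edgeR adjusted p = 0.00672), a call lost without KD DMSO replicate 1 (adjusted p = 0.0530). The parental value was -0.37 ± 0.20 (adjusted p = 0.152), and the difference between the responses was -0.43 ± 0.28 (adjusted p = 0.772). Hoxb2, a gene of the fourth hindbrain segment, had 16.8 and 10.5 CPM in the KD largazole libraries, against 22.6 and 19.1 CPM in the KD DMSO libraries, and 13.1 and 13.7 CPM in the parental largazole libraries, against 16.8 and 15.2 CPM in parental DMSO. Again the largazole libraries were lower in both genotypes, with wide spread between the KD largazole replicates. Hoxb2 fell by 0.62 ± 0.20 in KD cells (adjusted p = 0.0270), and its parental value was -0.25 ± 0.20 (adjusted p = 0.333). The KD call was lost with upper-quartile scaling (adjusted p = 0.0519), in a fit of only the libraries compared (0.0833), without KD DMSO replicate 1 (0.159) and with KD largazole replicate 2 left out, where the estimate was -0.31 (0.106).

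The other 4 tested Hoxb genes did not pass in either genotype. Hoxb4, a gene that expands blood stem cells when overexpressed, had 13.9 and 12.1 CPM in the KD largazole libraries, against 11.3 and 7.66 CPM in the KD DMSO libraries, and 10.8 and 11.5 CPM in the parental largazole libraries, against 8.80 and 8.43 CPM in parental DMSO. Its largazole libraries were higher in both genotypes, with log2 fold changes of 0.45 ± 0.19 (edgeR adjusted p = 0.0772) and 0.37 ± 0.20 (adjusted p = 0.144), and the KD value passed under 5 alternatives, with the lowest adjusted p, 0.0216, when KD DMSO replicate 1 was left out. Hoxb9 had 32.9 and 32.4 CPM in the KD largazole libraries, against 39.8 and 34.99 CPM in the KD DMSO libraries, and 32.4 and 35.6 CPM in the parental largazole libraries, against 28.8 and 28.7 CPM in parental DMSO. Its largazole libraries were lower in KD cells (-0.20 ± 0.11, adjusted p = 0.161) and higher in parental cells (0.24 ± 0.11, adjusted p = 0.0882), the parental value passing under 4 alternatives. Hoxb7 lay between 15.1 and 22.4 CPM and Hoxb5, which acts in the enteric nervous system and lung, between 1.84 and 3.47 CPM, with changes of -0.51 to -0.07. Hoxb7 passed in KD cells without KD largazole replicate 1, at -0.42 (adjusted p = 0.0473), and in parental cells under 4 alternatives.

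The upstream windows of Hoxa2 and Hoxb8 are shown as examples of genes that rose with largazole and have RefSeq entries. Hoxa4, Hoxb3, Hoxc5 and Hoxc6 have no entry. Hoxa3, which rose in both genotypes, has an entry that is not shown, with 18 CG pairs and no match of the motifs searched. The windows shown are chr6:52164832-52165081 on the minus strand for Hoxa2 and chr11:96281655-96281904 on the plus strand for Hoxb8. Both are on GRCm38.p6, again with CG pairs in capitals.
Hoxa2 (rose in KD cells): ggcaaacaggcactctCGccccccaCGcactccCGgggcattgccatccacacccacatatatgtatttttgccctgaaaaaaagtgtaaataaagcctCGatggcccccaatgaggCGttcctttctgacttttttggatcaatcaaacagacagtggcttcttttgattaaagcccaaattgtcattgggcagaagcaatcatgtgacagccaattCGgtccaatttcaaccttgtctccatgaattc
Hoxb8 (rose in both genotypes): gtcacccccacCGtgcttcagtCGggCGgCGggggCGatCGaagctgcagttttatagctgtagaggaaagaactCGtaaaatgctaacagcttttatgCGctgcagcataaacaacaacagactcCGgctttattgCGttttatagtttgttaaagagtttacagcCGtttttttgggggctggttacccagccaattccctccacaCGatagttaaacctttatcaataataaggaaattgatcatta
The Hoxa2 window holds 6 CG pairs, 4 matches of CCAAT and 1 of TGATTNAT. The Hoxb8 window holds 12 CG pairs, 2 matches of TATAAA, 1 of CCAAT and 1 of GGGCGG. A match is a run of letters and was not tested as a binding site.

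**Figure D3:**
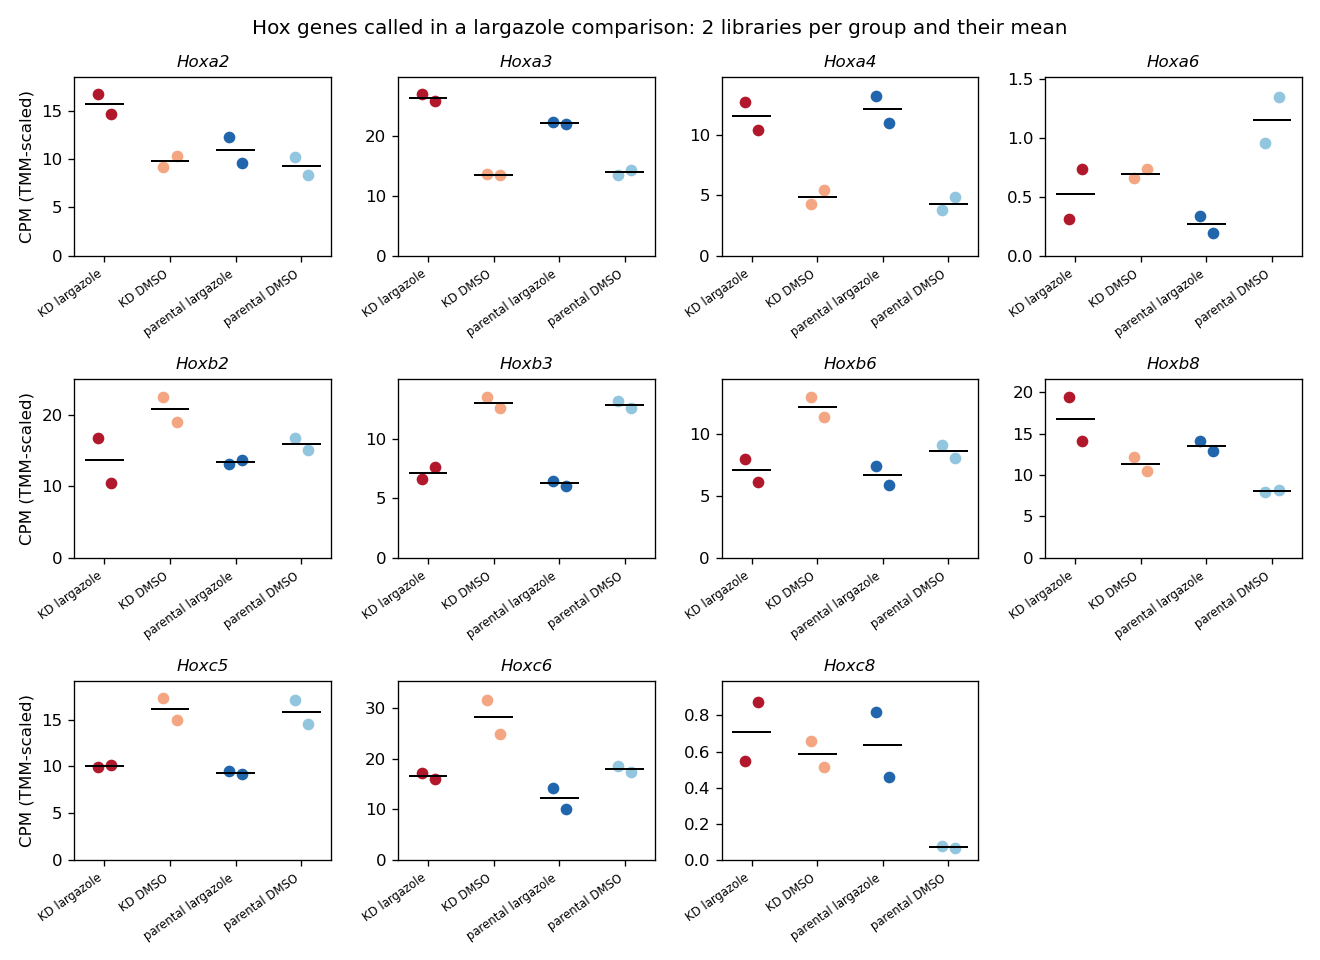
CPM (vertical axes, each from 0) of 11 of the 12 Hox genes called in at least 1 largazole comparison, with 1 point per library and a line at the group mean of 2, in the groups KD largazole, KD DMSO, parental largazole and parental DMSO from left to right. Hoxa3 and Hoxa4 show the largazole groups above both DMSO groups, Hoxb3 and Hoxc5 below them, and Hoxc8 is near 0 in parental DMSO alone.

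In the Hoxc cluster, Hoxc5 and Hoxc6, both genes of the neck and upper trunk, fell in both genotypes. Hoxc5 had 9.97 and 10.1 CPM in the KD largazole libraries, against 17.3 and 15.03 CPM in the KD DMSO libraries, and 9.46 and 9.16 CPM in the parental largazole libraries, against 17.1 and 14.6 CPM in parental DMSO. The largazole libraries lay close together and below every DMSO library, and Hoxc5 fell by 0.69 ± 0.15 in KD cells (edgeR adjusted p = 0.00403) and by 0.76 ± 0.15 in parental cells (adjusted p = 0.00224). Hoxc6 had 17.1 and 15.97 CPM in the KD largazole libraries, against 31.7 and 24.8 CPM in the KD DMSO libraries, and 14.2 and 10.1 CPM in the parental largazole libraries, against 18.6 and 17.3 CPM in parental DMSO. Its largazole libraries were lower within each genotype, with a fall of 0.77 ± 0.17 in KD cells (adjusted p = 0.00453) and 0.57 ± 0.18 in parental cells (adjusted p = 0.0271). The parental call was lost with upper-quartile scaling (adjusted p = 0.0548) and without parental DMSO replicate 1 (0.116), parental DMSO replicate 2 (0.0700) or parental largazole replicate 2, where the estimate was -0.36 (0.187). Hoxc4 had 11.4 and 11.7 CPM in the KD largazole libraries, against 9.28 and 9.21 CPM in the KD DMSO libraries (0.32 ± 0.16, adjusted p = 0.128), and 14.8 and 12.9 CPM in the parental largazole libraries, against 14.5 and 12.1 CPM in parental DMSO (0.06 ± 0.15).

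Hoxc8, a gene of the thoracic spine and of motor neurons to the forelimb, was read from very few counts: 7 and 13 in KD largazole, against 10 and 7 in KD DMSO, and 12 and 7 in parental largazole, against 1 and 1 in parental DMSO. It stood out by being near 0 in the parental DMSO libraries and similar in the other 3 groups. In parental cells 19 counts with largazole against 2 with DMSO gave a ratio of 9.02 with a 95% counting interval of 2.18 to 79.8 (exact binomial). The log2 fold change in edgeR was 3.02 ± 0.77 (adjusted p = 0.00722). Hoxc8 met the filter on low counts only through KD largazole replicate 2 and parental largazole replicate 1. Its call as a gene that rose with largazole therefore partly follows from the filter. The call was lost without parental DMSO replicate 1 (adjusted p = 0.0672), parental DMSO replicate 2 (0.0801) or parental largazole replicate 1 (0.0616). In KD cells the groups overlapped (0.29 ± 0.47), and the difference between the responses was -2.74 ± 0.94 (adjusted p = 0.419).

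None of the 3 tested Hoxd genes passed in either largazole comparison, where DESeq2 and limma-voom called none either and none had an unadjusted p under 0.05 in edgeR. Hoxd8 was the steadiest, between 9.17 and 11.1 CPM in all 8 libraries, with log2 fold changes of 0.08 ± 0.15 in KD cells and 0.06 ± 0.15 in parental cells. Hoxd4, which with Hoxd3 patterns the first neck vertebrae, lay between 1.38 and 2.83 CPM, with 0.30 ± 0.39 and -0.05 ± 0.40. Hoxd3 had 1.56 and 0.741 CPM in the KD largazole libraries, against 0.658 and 0.295 CPM in the KD DMSO libraries, and 0.681 and 0.659 CPM in the parental largazole libraries, against 0.444 and 0.675 CPM in parental DMSO. Its libraries did not overlap in KD cells, at 1.19 ± 0.55 (edgeR adjusted p = 0.0993). Hoxd3 met the filter on low counts only through the KD largazole libraries, where it was highest. Its separation there therefore partly follows from the filter. Since the exons of Hoxd3 and Hoxd4 overlap, their split of the reads is uncertain.

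Read by paralog group, members of a group did not move as 1. In group 3, Hoxa3 rose and Hoxb3 fell in both genotypes, and in group 2, Hoxa2 rose and Hoxb2 fell in KD cells. Hoxa4 was the only 1 of 4 tested genes in group 4 to pass, and Hoxc5 the only 1 of 3 in group 5. In group 6 every call was a fall, of Hoxa6 in parental cells, of Hoxb6 in KD cells and of Hoxc6 in both. In group 8, Hoxb8 rose in both genotypes and Hoxc8 in parental cells, and Hoxd8 passed in neither. Neither tested gene of group 7 passed, nor did Hoxb9.

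The 15 genes of groups 9 to 13 other than Hoxb9 together had 2 and 3 counts in KD largazole, against 1 and 1 in KD DMSO, and 8 and 11 in parental largazole, against 0 and 1 in parental DMSO. Most of the parental largazole counts were of Hoxa10, which patterns the uterus (2 and 7 counts, against 0 and 1 in parental DMSO), and Hoxc10, a gene of the lumbar region (5 and 2 counts, against 0 and 0). In KD cells Hoxa10 had 2 and 1 counts with largazole, against 1 and 1 with DMSO, and Hoxc10 0 and 2, against 0 and 0. These counts were too few to pass the filter of the main fit. With no filter, Hoxa10 and Hoxc10 had an unadjusted p under 0.05 in edgeR for largazole in parental cells, and neither passed after adjustment. The share of all genes at that threshold is not given here. The 15 genes together had 24 counts over the 4 largazole libraries and 3 over the 4 DMSO libraries, far below Hoxa7, Hoxb9 and Hoxd8. In the Hoxc cluster the 3′ neighbour, Hoxc8, was itself low, with 58 counts in all. Summed levels of marker lists, given with no test, were higher with largazole for some lists and lower for others. The 9 squamous markers summed to less, at 1607 and 1323 CPM in the KD largazole libraries, against 2397 and 2297 CPM in the KD DMSO libraries. Parental cells had 1278 and 1167 CPM with largazole, against 2134 and 2002 CPM with DMSO. Most of that sum was Krt8, which was lower with largazole in both genotypes, while Krt18 was higher in both. The 7 other than Krt8 and Krt18, set apart after their values were seen, summed to more, at 6.93 and 6.40 CPM in the KD largazole libraries, against 0.132 and 0.0737 CPM in the KD DMSO libraries, and 7.22 and 7.18 CPM in the parental largazole libraries, against 0.591 and 0.270 CPM in parental DMSO. Leukocyte markers summed to 0.741 to 1.12 CPM in the 4 largazole libraries, against 0 to 0.405 CPM in the 4 DMSO libraries. Most of that sum with largazole was Ptprc. Neuron and neural crest markers summed to 7.79 to 10.6 CPM, against 5.94 to 7.18 CPM. Nearly all of that sum was Mitf, so it does not describe the list as a whole. The fibroblast and mesenchyme sum was lower with largazole in both genotypes, but its members did not all move alike. Vim, Col3a1, Pdgfra and Pdgfrb were lower in both genotypes, and Col1a1 was higher in both. The endothelium sums overlapped. The part of these marker lists in the Hox counts was not tested.

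The knockdown was compared with parental cells first in DMSO, using the DMSO libraries that the largazole comparisons also use. Of 22 Hox genes 2 passed, both higher, which is 9.09% beside 11% of all genes tested (7.01% higher and 4.02% lower). At the looser threshold of an unadjusted p under 0.05 in edgeR there were 8. The share of all genes at that threshold is not given here or below, so such counts cannot show an excess of Hox genes. Hoxc6, with 31.7 and 24.8 CPM in the KD DMSO libraries, against 18.6 and 17.3 CPM in parental DMSO, was higher in both KD libraries by 0.65 ± 0.17 (edgeR adjusted p = 0.0369). The call was lost with no filter on low counts (adjusted p = 0.0518) and without KD DMSO replicate 1 (0.303), KD DMSO replicate 2 (0.0508), parental DMSO replicate 1 (0.181) or parental DMSO replicate 2 (0.258). Hoxc8 had 17 counts in KD DMSO, against 2 in parental DMSO, a ratio of 8.38 (1.99 to 74.8, exact binomial) and a log2 fold change of 2.92 ± 0.79 (adjusted p = 0.0364). It was lost with DESeq2 (adjusted p = 0.157), with no filter (0.0536) and without any of the 4 DMSO libraries (0.100 to 0.286) or either parental largazole library (0.0517 and 0.0542).

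Below the threshold in DMSO, Hoxb9, with 39.8 and 34.99 CPM in KD cells, against 28.8 and 28.7 CPM in parental cells, had a difference of 0.38 ± 0.11 (edgeR adjusted p = 0.0520) that passed under 7 alternatives. Hoxc4, with 9.28 and 9.21 CPM in KD cells, against 14.5 and 12.1 CPM in parental cells, had -0.52 ± 0.16 (adjusted p = 0.0633), passing under 4. In both genes the KD and parental libraries were apart. Hoxb8 (0.50 ± 0.19), Hoxb6 (0.51 ± 0.19), Hoxb2 (0.39 ± 0.20) and Hoxa5 (0.33 ± 0.12) were higher in both KD libraries, with edgeR adjusted p between 0.107 and 0.262. Each passed without KD largazole replicate 1, a library outside this comparison. More of all genes passed in that fit as well, so the gain is not particular to these Hox genes.

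**Figure D4:**
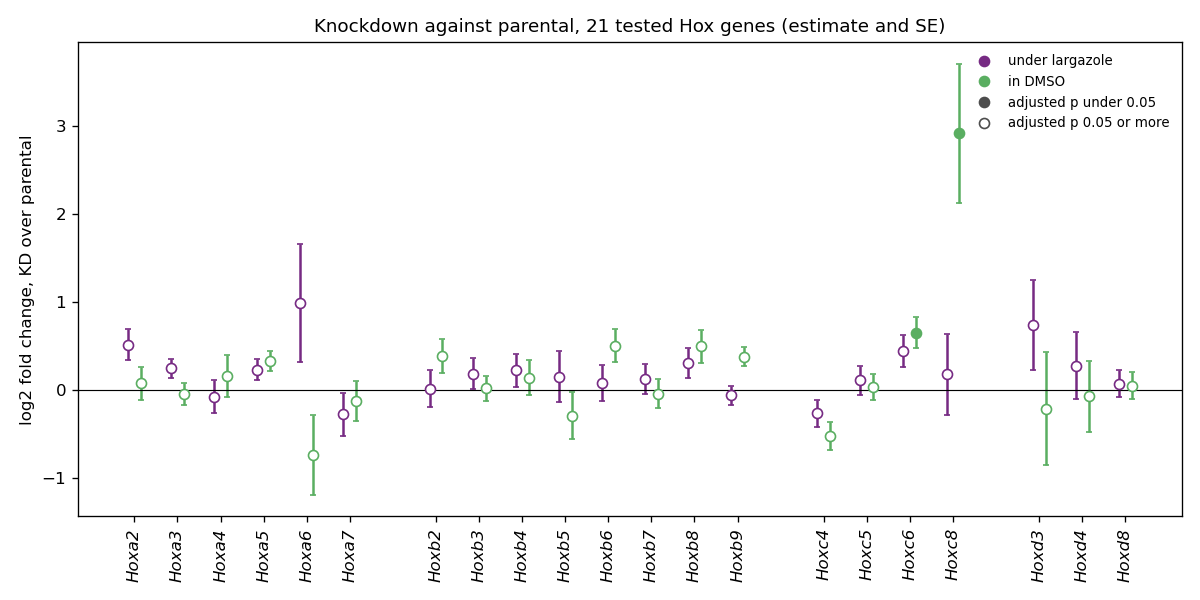
Log2 fold change of KD over parental cells (vertical axis) for 21 of the 22 tested Hox genes in cluster and position order (horizontal axis), under largazole and in DMSO, with bars of 1 standard error. Filled points passed at an adjusted p under 0.05, among the genes shown Hoxc6 and Hoxc8 in DMSO, at 0.65 and 2.92.

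Under largazole 1 of 22 Hox genes passed between the genotypes, 4.55% beside 18.3% of all genes tested (8.51% higher and 9.81% lower), and 3 had an unadjusted p under 0.05. Hoxa2 was higher in both KD libraries, at 0.52 ± 0.18 (edgeR adjusted p = 0.0689). Hoxc6 was higher too, at 0.45 ± 0.19 (adjusted p = 0.127), and so was Hoxb8, at 0.31 ± 0.17. Without KD largazole replicate 2, Hoxa2 passed, as did Hoxb8 at 0.53. More of all genes passed in that fit as well, so the gain is not particular to these Hox genes. The Hoxc8 counts of the genotypes overlapped (0.18 ± 0.46).

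The difference between the largazole responses of KD and parental cells passed for 0 of 22 Hox genes in edgeR, where 0.208% of all genes passed (0.032% with a higher and 0.176% with a lower response in KD cells). An unadjusted p under 0.05 was found for 2 genes, Hoxb9 (-0.44 ± 0.15, adjusted p = 0.440) and Hoxc8, while DESeq2 gave 0 adjusted and 1 unadjusted and limma-voom 0 and 2. A call in 1 genotype alone therefore does not show that the responses differed.

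Genes that act with or on the Hox clusters were counted from lists of known function. The counts with largazole stand beside 48.2% of all genes called in KD cells (25% higher and 23.2% lower) and 49.6% in parental cells (26.9% higher and 22.7% lower), and no list was tested against other genes. Of 8 tested TALE cofactors, 5 rose and 2 fell with largazole in each genotype. Their median log2 fold change was 0.46 in both, against 0.01 for all genes in KD cells and 0.03 in parental cells. Pbx4 and Meis3, risers in both, were low in every DMSO library and met the filter on low counts only through largazole libraries. The count of risers and the median therefore partly follow from the filter. Meis1, a partner that stabilizes Hox binding, rose (0.57 ± 0.17 in KD and 0.79 ± 0.18 in parental cells), while Pbx3 fell (-0.62 ± 0.12 and -0.73 ± 0.12), as did Pknox1 (-0.93 ± 0.16 and -0.66 ± 0.15). The Hox partners thus moved in both directions too. Between genotypes under largazole 1 was higher and 1, Meis2, was lower in KD cells (-0.40 ± 0.11), and none passed in DMSO.

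Of 16 Polycomb genes, 3 rose and 4 fell with largazole in KD cells, and 3 rose and 5 fell in parental cells, shares near those of all genes. Ezh2, the methyltransferase of PRC2, fell by 1.10 ± 0.09 in KD cells and by 0.71 ± 0.09 in parental cells, and Suz12, its partner, fell in both (-0.75 ± 0.12 in KD cells). Cbx7 rose in both (1.14 ± 0.15 and 1.15 ± 0.15) and so did Ring1, a ubiquitin ligase of PRC1 (0.46 ± 0.12 in KD cells and 0.89 ± 0.13 in parental cells). Ezh2 was also lower with the knockdown, with 61.9 and 64.0 CPM in the KD DMSO libraries, against 85.8 and 86.4 CPM in parental DMSO (-0.45 ± 0.09), and 29.99 and 28.8 CPM in the KD largazole libraries, against 54.4 and 50.7 CPM in the parental largazole libraries (-0.84 ± 0.09). Of 12 trithorax and MLL genes, 1 rose and 7 fell in each genotype, the riser being Mllt3 (0.94 ± 0.10 and 0.87 ± 0.10) and the largest fall that of Dot1l, the H3K79 methyltransferase (-0.96 ± 0.20 and -1.04 ± 0.19). Of 7 tested cohesin and CTCF genes, 5 fell in KD cells and 6 in parental cells and none rose; the cohesin subunit Rad21 had 352 and 422 CPM in the KD largazole libraries, against 574 and 629 CPM in the KD DMSO libraries, and Smc3 fell by 0.69 ± 0.09 there. These lists had medians of -0.11, -0.37 and -0.58 in KD cells and -0.19, -0.37 and -0.60 in parental cells.

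Of 8 tested retinoid genes, 4 rose in KD cells and 3 rose and 1 fell in parental cells. All risers but Rara were at or near 0 CPM in the DMSO libraries. They met the filter on low counts only through largazole libraries, so these counts partly follow from the filter. Aldh1a1, an enzyme that makes retinoic acid, had 6.85 and 5.80 CPM in the KD largazole libraries, against 0 and 0.221 CPM in the KD DMSO libraries, and Rara, a retinoic acid receptor, rose by 0.34 ± 0.11 in KD cells. Rxra, the shared partner of these receptors, fell by 0.44 ± 0.10 in parental cells. None of the 10 Hox-like and cluster-linked homeobox genes, Evx1 and Evx2 at the 5′ ends of clusters among them, had enough counts to be tested. Of 51 other homeobox genes 18 were tested: 3 rose and 9 fell in KD cells, and 4 rose and 10 fell in parental cells. Among the risers, Dlx4, and Lhx9 in parental cells, met the filter on low counts only through largazole libraries. Lhx6 fell furthest among those at 5 CPM or more (-2.03 ± 0.18 and -1.90 ± 0.17) and Prrx2 rose (1.02 ± 0.14 and 0.92 ± 0.14), while Prrx1, a mesenchymal gene, was higher with the knockdown both under largazole (0.86 ± 0.08) and in DMSO (0.49 ± 0.08).

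Of 17 tested genes flanking the clusters, 5 rose and 5 fell in KD cells, and 4 rose and 5 fell in parental cells, which is near the share of all genes called. Calcoco2, a riser in both, met the filter on low counts only through largazole libraries. Beyond the Hoxa cluster, Snx10 rose (0.96 ± 0.12 and 1.01 ± 0.12), near the Hoxc cluster Calcoco1 rose (0.89 ± 0.09 and 0.95 ± 0.09) and Cbx5 fell (-0.78 ± 0.08 and -0.76 ± 0.08), and beside the Hoxd cluster Lnp fell (-0.76 ± 0.10 and -0.67 ± 0.10). Skap2, another neighbour of the Hoxa cluster, rose by 0.51 in KD cells and 0.41 in parental cells.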

How the data were processed

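Polyadenylated RNA of 8 libraries was sequenced from directional libraries, per the labels' protocols. The authors deposited estimated counts per gene (expected counts, mostly whole with 2.50% to 2.83% of values fractional), with no normalization; rounding to whole numbers preceded every test. The genome build was mm10, per the submitters' processing notes. Aligner, counter, strand setting and annotation were not given in the sources used here. Total counts of 13020492 to 15613216 per library set the floor for undetected genes.

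Scaling was by TMM. Genes were filtered with filterByExpr (minimum count 10, minimum total 15), which kept 12517 of 24411 genes, and tested with edgeR 4.0.16's two-sided quasi-likelihood F test in 1 fit to all 8 libraries with 1 mean per group. Adjusted p is by Benjamini-Hochberg over these 12517 genes, with a threshold of 0.05, and each SE was obtained by dividing the log2 fold change, without its sign, by √F. The 5 comparisons were largazole against DMSO in KD and in parental cells, KD against parental cells under largazole and in DMSO, and the difference between the largazole responses. Intervals on ratios of low counts are exact binomial and cover counting error only. Exon lengths and overlaps came from GENCODE M21 on GRCm38, the assembly of mm10, and promoters from RefSeq on GRCm38.p6.

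Alternatives were no filter on low counts, scaling by RLE, upper quartile or library totals, a stricter filter (at least 30 counts and 1 CPM in every library of a group), DESeq2 1.42.0, limma-voom (limma 3.58.1), the older quasi-likelihood method, only the libraries compared, the replicate number as a block, removal of Rn45s and leaving out each library. The test was tried on simulated data with known changes. The software was R 4.3.3, with figures from Python 3.11.15 (matplotlib 3.10.9).

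The members, the gene lists and the rule for named genes were chosen with earlier results of these data known. The Hox genes are described by cluster, some results being not reported here though counted in the totals; of each list up to 4 passing members per comparison were named, by size of change among those of at least 5 CPM in 1 group, and some are left out for length. The naming of Skap2 came after its values had been seen. Outside that rule, Pbx4, Meis3, Dlx4, Lhx9 and Calcoco2 are named only for how they met the filter. The files held 27 symbols turned into dates by spreadsheet software, which are not named here. Hoxb3os and Haglros were not analysed here.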

Additional observations from a re-analysis of the deposited data

How the results depend on the processing

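No result reversed its direction past the threshold under any alternative. Of 22 calls, 11 were kept in every alternative that gave a value, all of them largazole responses, among them those of Hoxa3, Hoxa4, Hoxb3 and Hoxc5 in both genotypes and of Hoxc6 in KD cells. The number of Hox genes called with largazole ranged from 7 to 12 in KD cells and from 6 to 11 in parental cells, within 1.5 times the reported counts of 10 and 9. Silent genes numbered 12 when defined by 0 counts, 17 when defined by at most 10 counts, and 15 or 16 when 1 library was left out. Upper-quartile scaling placed the median log2 fold change of all genes at 0.11 in parental cells with largazole, against 0.03 with TMM. Calls over all genes with largazole varied too, also apart from the fits that left out 1 library. They ranged from 4486 of 12217 to 6757 of 12517 in KD cells, and from 5624 of 12517 to 7875 of 12163 in parental cells.

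The knockdown counts were less stable, for all genes as well as for Hox genes, and the cause was not tested. In both knockdown comparisons, calls over all genes also varied widely between the fits that left out 1 library. The swing in Hox calls between those fits is therefore not particular to Hox genes. In DMSO 1380 of 12517 genes were called in the main fit, 1291 with DESeq2 and 1149 of 16538 with no filter. The fit of only the libraries compared called 3266 of 11632 there, and the replicate block 2033 of 12517. Under largazole 2293 of 12517 were called in the main fit, 965 of 12395 with only the libraries compared and 3103 with the replicate block. For KD against parental cells in DMSO, where 2 Hox genes were called, DESeq2 called 1, no filter 0, the fit of only the libraries compared 7 and the replicate block 4, and leaving out 1 library gave 0 to 8. Under largazole, where 1 was called, the fit of only the libraries compared called 0 and the replicate block 3, and leaving out 1 library gave 0 to 3. The replicate numbers were not treated as pairing the libraries: differences between replicates correlated at 0.314 to 0.430 between 3 of the groups and at 0.00764 to 0.110 with parental DMSO (Pearson's r across 10184 genes, which are not independent replicates). With the replicate block, calls were added for Hoxa7 and Hoxb4 with largazole in KD cells (edgeR adjusted p = 0.0433 and 0.0443), Hoxb7 with largazole in parental cells (0.04597), Hoxb9 and Hoxc4 between genotypes in DMSO (0.0324 and 0.0394) and Hoxa2 and Hoxc6 between genotypes under largazole (0.0320 and 0.0363), and none was lost. Leaving out a library leaves 1 in its group, assumed to vary like the others. The low counts of Hoxa6, Hoxc8 and Hoxd3, each under 10 in at least 1 library, limit their estimates most.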
